A study of Rattus norvegicus with 16 samples.

Results

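Aif1, Itgam, Cx3cr1, Tyrobp, Cd68 and Ptprc are 6 genes by which microglia and macrophages are recognised. They were taken by their Ensembl gene IDs, ENSRNOG00000000853 (Aif1), ENSRNOG00000019728 (Itgam), ENSRNOG00000018509 (Cx3cr1), ENSRNOG00000020845 (Tyrobp), ENSRNOG00000037563 (Cd68) and ENSRNOG00000000655 (Ptprc), from a table of 30560 rat genes. All 6 passed the filter on low counts, which left 15237 genes for testing. The genes were followed in poly(A) RNA of the lumbar spinal dorsal horn, the region of the cord where sensory fibres from the hind limb end, 28 days after surgery. The rats were wild type (WT) or LPA4 knockouts (KO), LPA4 being a receptor of the signalling lipid lysophosphatidic acid. Their surgery was either a sham procedure or SNI (spared nerve injury), in which some branches of the sciatic nerve are cut and another is left intact. The design gives 4 groups (sham and SNI in WT, sham and SNI in KO) with 4 libraries each. The titles of the KO sham libraries carry "WT" where the operation should stand, and they were placed in KO sham because the deposited column headers name them so. How the knockout was made, the strain, sex and age of the rats, the side of the cord taken and whether each library is 1 rat are not given in these sources, so a p-value here reflects only how far libraries differ, which may be technical.

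Microglia are the resident phagocytes of the central nervous system, and macrophages at its borders share most of their marker genes. After a peripheral nerve is injured, microglia in the part of the dorsal horn that receives its fibres are known to enlarge and multiply, and genes of this kind are widely used to follow them. Myeloid genes of this class are known as targets of PU.1, a transcription factor that binds purine-rich DNA with a GGAA core. In bulk tissue, more cells of a type and more RNA per cell cannot be told apart. None of the 6 genes marks microglia alone: Ptprc is made by all nucleated cells of the blood lineage, and Itgam, Tyrobp and Cd68 also by monocytes and neutrophils or other phagocytes. Other marker genes were not analysed here because the files do not pair gene IDs with names. For the same reason the tissue label was not checked against markers, and the count of the targeted receptor gene is not reported.

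The RefSeq promoter table, on the build GRCr8, holds 4 of the 6 genes. The 250 bases before each gene's start are shown because genes of this class are known as targets of PU.1. The letters of 2 PU.1-type purine motifs are in capitals: GAGGAA and GGAAGT. Both strands were searched, so that a match on the other strand reads TTCCTC or ACTTCC. The motifs share the letters GGAA and can overlap. The windows are chr1:192089342-192089591 on the plus strand for Itgam, chr13:52259747-52259996 on the minus strand for Ptprc, chr10:54882442-54882691 on the minus strand for Cd68 and chr8:128677067-128677316 on the minus strand for Cx3cr1. Each is written 5′ to 3′ along the gene.
Itgam: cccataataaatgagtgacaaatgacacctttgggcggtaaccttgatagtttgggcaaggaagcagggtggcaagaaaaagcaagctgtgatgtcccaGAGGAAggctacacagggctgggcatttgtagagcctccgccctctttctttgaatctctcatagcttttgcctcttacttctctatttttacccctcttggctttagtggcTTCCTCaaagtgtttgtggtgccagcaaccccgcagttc
Ptprc: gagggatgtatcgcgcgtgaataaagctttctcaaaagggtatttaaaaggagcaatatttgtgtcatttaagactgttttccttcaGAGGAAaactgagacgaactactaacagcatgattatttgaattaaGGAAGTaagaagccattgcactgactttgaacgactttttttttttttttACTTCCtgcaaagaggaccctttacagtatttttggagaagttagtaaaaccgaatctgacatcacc
Cd68: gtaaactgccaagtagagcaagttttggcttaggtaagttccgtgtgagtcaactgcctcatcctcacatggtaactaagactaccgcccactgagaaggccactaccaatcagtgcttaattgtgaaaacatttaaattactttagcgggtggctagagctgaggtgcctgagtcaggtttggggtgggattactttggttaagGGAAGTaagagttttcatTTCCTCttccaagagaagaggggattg
Cx3cr1: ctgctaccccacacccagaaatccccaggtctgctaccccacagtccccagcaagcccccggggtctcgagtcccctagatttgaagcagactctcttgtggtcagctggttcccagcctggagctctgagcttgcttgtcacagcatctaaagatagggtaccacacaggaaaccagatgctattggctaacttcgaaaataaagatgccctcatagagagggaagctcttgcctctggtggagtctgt

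Itgam held GAGGAA beginning 151 bases before its start and, on the other strand, 39 bases before it. Ptprc held GAGGAA 163 bases before its start and GGAAGT 117 bases and, on the other strand, 67 bases before it. In Cd68, GGAAGT lay 45 bases before the start and GAGGAA, on the other strand, 27 bases before it. The Cx3cr1 window held neither of these 2 longer strings, although the GGAA core does occur in it. GAGGAA was therefore in 3 of these 4 windows and GGAAGT in 2 of 4, against 23.3% and 19.2% of all 33469 promoter windows of this length in the table. Both windows with GGAAGT also held GAGGAA, so that either motif was in 3 of 4 windows, against 36.7% of all windows. Such matches describe the letters only and were not tested as binding sites.

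Library totals ran from 15790243 to 28090152 counts. The median correlation with all other libraries was 0.949 for WT sham replicate 2 and 0.973 for KO SNI replicate 1, while the remaining 14 lay between 0.980 and 0.987. These 2 are called the atypical libraries here; both were kept, and calls that change without them are given beside the results. Levels are CPM values (the gene's counts relative to the size of its library) scaled by the TMM method, and are compared only within a gene. A gene is said to be called, or to rise or fall, where its edgeR quasi-likelihood p, adjusted by the Benjamini-Hochberg method over all 15237 genes, was under 0.05.

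Nerve injury raised 5 of the 6 genes, taking both genotypes together. Averaged over WT and KO, Tyrobp was 1.88-fold, Ptprc 1.77-fold, Aif1 1.71-fold, Itgam 1.57-fold and Cx3cr1 1.44-fold higher after SNI than after sham. Cd68 had the largest estimate of the 6, 2.56-fold, but was not called. The background of this comparison was 0.912% of all genes called higher and 0 called lower. The median log2 fold change was 0.80 over the 6 genes and -0.0036 over all genes tested, of which 48.4% were higher after SNI. Ranked by p, the 6 genes stood between place 39 (Cx3cr1) and place 171 (Cd68) of 15237.

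**Figure D1:**
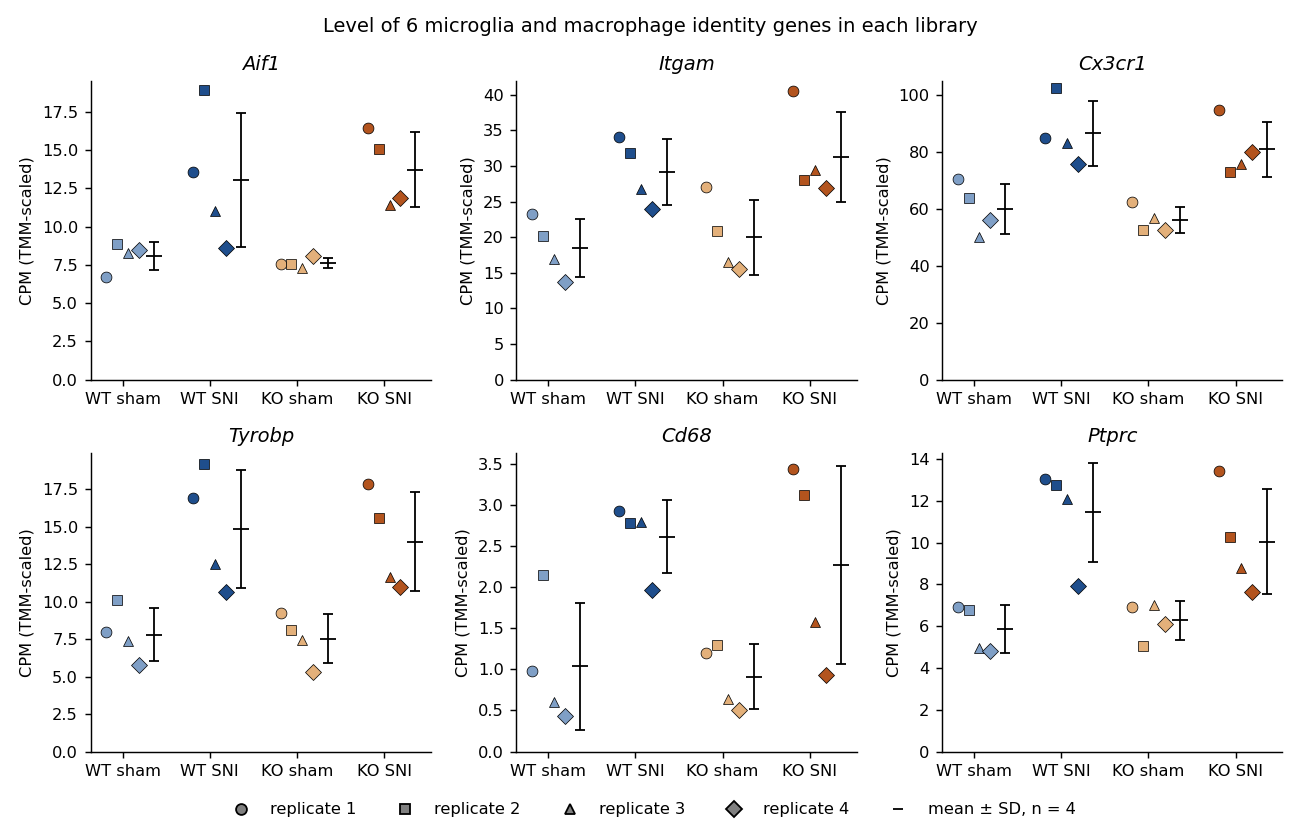
CPM (vertical axes, from 0, a scale of its own for each gene) of the 6 genes in each library of the 4 groups (horizontal axes), with marker shapes for the replicate numbers and the mean ± SD of each group (n = 4) in black. For Cx3cr1, Tyrobp and Ptprc the 8 SNI points stand higher than the 8 sham points.

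Itgam encodes CD11b, the integrin chain that forms complement receptor 3 and lets phagocytes take up complement-coated material. It measured 23.3, 20.1, 17.0 and 13.8 CPM in WT sham replicates 1 to 4 and 34.1, 31.9, 26.8 and 24.0 CPM in WT SNI. In KO sham it measured 27.0, 20.9, 16.5 and 15.5 CPM, and in KO SNI 40.6, 28.0, 29.5 and 26.9 CPM. The WT groups did not overlap, by a margin of 24.0 against 23.3 CPM, while in KO the highest sham library passed the lowest SNI library narrowly. The averaged log2 rise was 0.65 (SE 0.14, edgeR adjusted p = 0.0364). This was the least secure of the 5 calls. Among the WT libraries, leaving out sham replicate 3 or 4 or SNI replicate 1, 2 or 3 ended it, and among the KO libraries sham replicate 2, 3 or 4 or SNI replicate 1, 2 or 3 did so, with edgeR adjusted p of at most 0.101. It also ended without the 2 atypical libraries, at edgeR adjusted p = 0.0503.

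Cx3cr1 encodes the receptor for fractalkine, a chemokine that neurons carry on their surface. Its values were 70.3, 63.8, 50.2 and 56.1 CPM in WT sham and 85.0, 102, 83.0 and 75.7 CPM in WT SNI. KO sham libraries held 62.4, 52.4, 56.6 and 52.7 CPM and KO SNI libraries 94.7, 73.1, 75.6 and 80.1 CPM. No sham value reached any SNI value, the closest being 73.1 CPM after SNI and 70.3 CPM after sham. Cx3cr1 had the smallest fold change of the 6 and the smallest standard error: 0.53 in log2 units (SE 0.08, edgeR adjusted p = 0.00359). With 894 to 2703 counts per library it was also the gene with the most counts behind its values.

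Tyrobp encodes DAP12, the membrane adaptor through which TREM2 and related receptors signal in myeloid cells. WT sham libraries had 7.96, 10.1, 7.35 and 5.78 CPM, and WT SNI libraries 16.9, 19.2, 12.5 and 10.6 CPM. In KO the values were 9.21, 8.09, 7.44 and 5.31 CPM after sham and 17.9, 15.5, 11.6 and 11.0 CPM after SNI. Every SNI library again lay above every sham library, although the atypical WT sham replicate 2, at 10.1 CPM, came close to the lowest SNI library, at 10.6 CPM. The averaged log2 rise was 0.91 (SE 0.16, edgeR adjusted p = 0.00835).

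Ptprc encodes CD45, the tyrosine phosphatase on the surface of white blood cells and, at a lower level, of microglia. Its WT sham values were 6.94, 6.77, 4.97 and 4.82 CPM and its WT SNI values 13.05, 12.8, 12.1 and 7.94 CPM. The KO sham values were 6.94, 5.04, 7.04 and 6.12 CPM and the KO SNI values 13.5, 10.3, 8.80 and 7.66 CPM. Here too no sham library reached an SNI library, with 7.66 CPM the lowest SNI value and 7.04 CPM the highest sham value. The averaged log2 rise was 0.82 (SE 0.14, edgeR adjusted p = 0.00733). Over all genes tested, 0.492% had all 8 SNI values above all 8 sham values, against 3 of these 6 genes.

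Aif1 encodes IBA1, the calcium-binding protein of the actin skeleton that is stained to show microglia in tissue. It stood at 6.74, 8.84, 8.28 and 8.46 CPM in WT sham and at 13.6, 18.9, 11.1 and 8.63 CPM in WT SNI. In KO it stood at 7.59, 7.56, 7.28 and 8.07 CPM after sham and at 16.5, 15.1, 11.4 and 11.9 CPM after SNI. The sham libraries were close together, with a coefficient of variation of 4.29% in KO sham and 11.4% in WT sham, and the SNI libraries were more spread, at 17.9% in KO and 33.8% in WT. WT SNI replicate 4 fell within the WT sham range, and in KO the groups did not overlap. The averaged log2 rise was 0.77 (SE 0.14, edgeR adjusted p = 0.00913).

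Cd68 encodes a glycoprotein of lysosomes and late endosomes that is abundant in phagocytes. It had only 8 to 98 counts per library. WT sham libraries held 0.980, 2.14, 0.606 and 0.428 CPM and WT SNI libraries 2.92, 2.78, 2.79 and 1.96 CPM, while KO sham libraries held 1.20, 1.29, 0.640 and 0.501 CPM and KO SNI libraries 3.43, 3.12, 1.57 and 0.932 CPM. The groups overlapped in both genotypes, in WT only through WT sham replicate 2, which was the highest sham library, and in KO only through KO SNI replicate 4. Cd68 had an averaged log2 fold change of 1.35 (SE 0.33, 95% confidence interval 0.64 to 2.07, edgeR adjusted p = 0.0881). It became called without WT sham replicate 2 (log2 fold change 1.63, edgeR adjusted p = 0.0115), without KO SNI replicate 4 (1.48, edgeR adjusted p = 0.0398) and without the 2 atypical libraries (1.49, edgeR adjusted p = 0.0191). DESeq2 called it over all 16 libraries (1.35, DESeq2 adjusted p = 0.00680). EdgeR with a block for the replicate number also called it (1.41, edgeR adjusted p = 0.00428).

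Within each genotype, no member was called, at 4 libraries against 4. The 6 log2 fold changes were 0.53 to 1.38 in WT (median 0.81) and 0.53 to 1.33 in KO (median 0.76), all above 0. The medians over all genes tested were -0.00068 in WT and 0.0022 in KO. The lowest edgeR adjusted p was 0.119 in WT, for Ptprc, and 0.0970 in KO, for Cx3cr1, where 0.0788% and 0.105% of all genes were called higher. Before adjustment all 6 genes had p under 0.05 in each genotype, at most 0.0104 in WT and 0.0129 in KO, both for Cd68. That was so for 2.93% of all genes in the higher direction in WT and for 3.71% in KO. In WT the SNI values of Itgam, Cx3cr1, Tyrobp and Ptprc all lay above the sham values, as did those of Aif1, Cx3cr1, Tyrobp and Ptprc in KO; the shares of all genes were 1.90% in WT and 2.49% in KO. DESeq2 called 3 of the 6 in each genotype: Cx3cr1, Tyrobp and Ptprc in WT, and Aif1, Cx3cr1 and Tyrobp in KO. EdgeR with a block for the replicate number called 4 of the 6 in WT: Itgam, Cx3cr1, Tyrobp and Ptprc (edgeR adjusted p 0.00503 to 0.0451). In KO the block gave 3 calls: Itgam, Cx3cr1 and Tyrobp (edgeR adjusted p 0.00674 to 0.0411). The labels do not say what the numbers mark. Limma voom called 0 of the 6 in either genotype. By edgeR, leaving out 1 library added a call in 2 instances, Ptprc in WT without WT SNI replicate 4 (edgeR adjusted p = 0.0391) and Aif1 in KO without WT SNI replicate 2 (edgeR adjusted p = 0.0410), and Ptprc was also called in WT without the 2 atypical libraries (edgeR adjusted p = 0.0357).

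**Figure D2:**
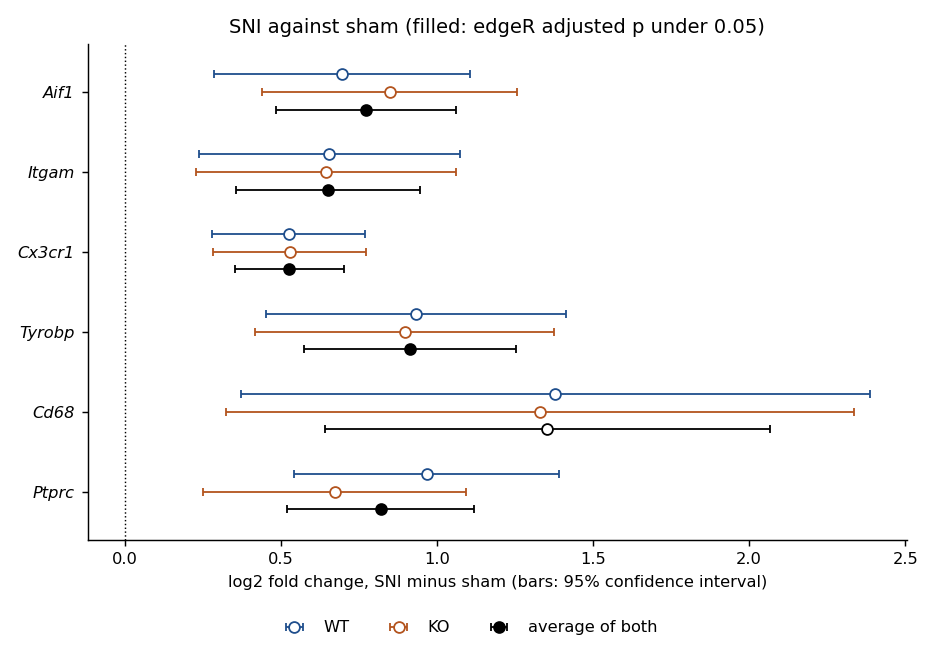
Log2 fold change of SNI against sham (horizontal axis) for each gene in WT, in KO and averaged, with 95% confidence intervals as bars; filled circles are called. All intervals lie above 0, the shortest being those of Cx3cr1 and the widest those of Cd68, and filled circles appear only for the averaged effect of the 5 called genes.

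Loss of LPA4 was not seen to change the level of any of the 6 genes. After sham, 0 of the 6 were called between KO and WT (edgeR adjusted p 0.884 to 0.972), where 0.0131% of all genes were called in either direction. Log2 differences, KO minus WT, ran from -0.15 for Cd68 to 0.11 for Itgam, with a median of -0.063. After SNI 0 of the 6 were called (edgeR adjusted p = 1.0 for each), with 0.0131% of all genes called, and the differences ran from -0.20 for Cd68 to 0.10 for Itgam. Averaged over operations 0 of the 6 were called either, again with 0.0131% of all genes called. By edgeR 0 of the 6 had an unadjusted p under 0.05 in any of these comparisons, against 3.89% of all genes after sham, 1.23% after SNI and 1.69% averaged, and DESeq2 and limma voom also called 0 of the 6.

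How large a difference remained possible depended on the gene. For Cx3cr1, with the narrowest intervals, the 95% confidence interval of KO minus WT was -0.35 to 0.15 after sham and -0.34 to 0.15 after SNI on the log2 scale. For Cd68 it was -1.22 to 0.92 after sham and -1.14 to 0.73 after SNI, so both intervals reach past a KO level 2-fold lower. The intervals of the other 4 genes after SNI reached from -0.60 (Ptprc) to 0.51 (Itgam).

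The size of the response to nerve injury was not shown to differ between genotypes. The interaction, which is the SNI effect in KO minus that in WT, was called for 0 of the 6 genes by edgeR (adjusted p 0.978 to 0.999), by DESeq2 and by limma voom, with 0 of 15237 genes, or 0.00%, called by edgeR and 0 of the 6 at an unadjusted p under 0.05, against 3.07% of all genes. For Cx3cr1 the SNI effects were nearly equal, 0.53 in each genotype, with a difference of 0.0029 (95% confidence interval -0.34 to 0.35). For Ptprc the effect was 0.97 in WT and 0.67 in KO, a difference of -0.29 (-0.89 to 0.30), the largest of the 6. Aif1 had the opposite sign, with 0.70 in WT, 0.85 in KO and a difference of 0.15 (-0.43 to 0.73). The differences were -0.0099 (-0.60 to 0.58) for Itgam, -0.035 (-0.71 to 0.64) for Tyrobp and -0.050 (-1.48 to 1.38) for Cd68. Each interval over all 16 libraries includes 0. For Aif1, Itgam, Cx3cr1 and Tyrobp it leaves out a difference as large as the gene's own averaged SNI effect. For Ptprc and Cd68 it does not. The margin was narrow for Aif1, with a limit of 0.73 against an effect of 0.77, and for Itgam, with -0.60 against 0.65. Leaving out 1 library took the Aif1 difference to as much as 0.39 and its averaged effect to as little as 0.65. Whether these limits hold with libraries left out was not tested.

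**Figure D3:**
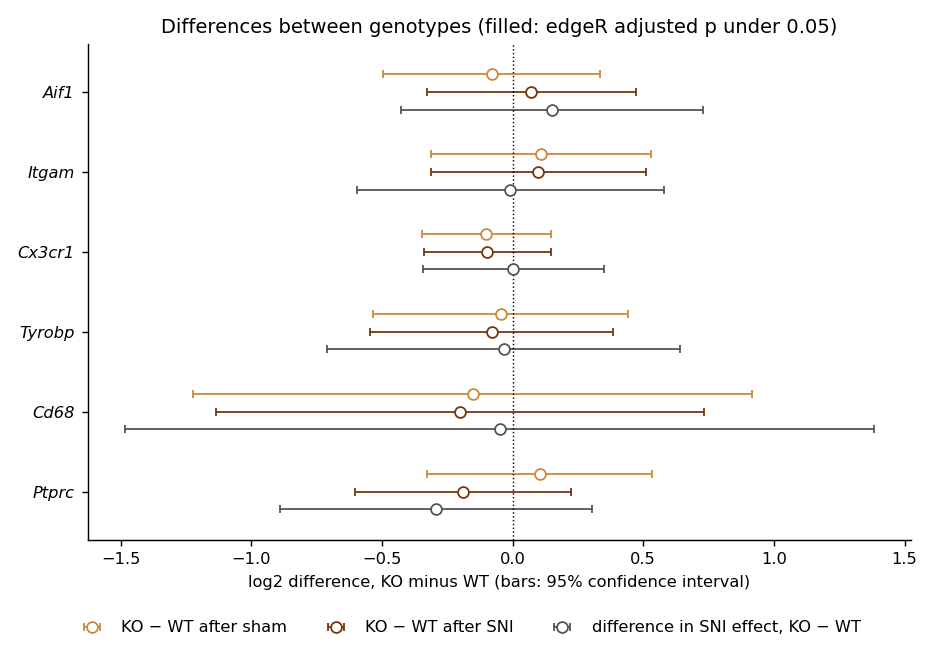
Log2 difference of KO minus WT (horizontal axis) after sham and after SNI, and the difference in SNI effect between genotypes, for each gene with 95% confidence intervals; no circle is filled, so none is called. All intervals cross 0, and those of Cd68 are the widest.

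As a description of the spread within groups, the mean log2 CPM of the 6 genes was taken in each library relative to its mean in WT sham. WT sham libraries lay between -0.33 and 0.37 and KO sham libraries between -0.26 and 0.25, while WT SNI libraries lay between 0.48 and 1.14 and KO SNI libraries between 0.42 and 1.19. The lowest SNI library, KO SNI replicate 4, was thus near the highest sham library, WT sham replicate 2. KO SNI replicate 1, the other atypical library, was the highest of the 16, and WT SNI replicate 2 followed at 1.14. In WT sham replicate 2 the excess came mostly from Cd68, at 1.21 above the WT sham mean, and Tyrobp, at 0.40; Aif1, Itgam, Cx3cr1 and Ptprc were 0.097 to 0.22 above it.

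**Figure D4:**
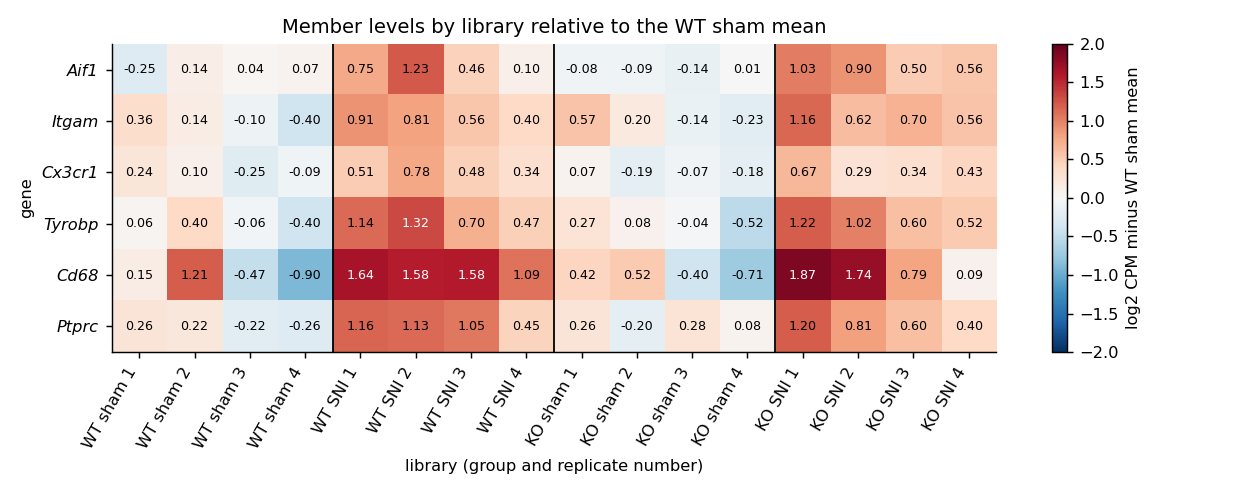
Log2 CPM (prior count 2) of each gene (rows) in each of the 16 libraries (columns, by group and replicate number), minus the gene's mean in WT sham; red is higher and blue lower, and each cell prints its value. SNI libraries are above 0 in every gene, with the lowest cell at 0.085 (Cd68 in KO SNI replicate 4). The deepest red is Cd68 in KO SNI replicate 1, at 1.87.

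Covariation was measured after each group's mean had been taken off, so that differences between the group means do not contribute. Differences among libraries of the same group remain, which may include unequal responses to SNI. Over the 16 libraries the 15 pairs of genes had Pearson r from 0.288 to 0.829, with a median of 0.637, all above 0. Among the SNI libraries alone the median r was 0.782, with all 15 above 0. Among the sham libraries alone it was 0.499, with 11 of 15 above 0, and this contrast was not tested. Of the 15 pairs, 10 had an adjusted p under 0.05 for Pearson's r and 6 for Spearman's rho (permutation test within groups, two-sided, 100000 draws, Benjamini-Hochberg over the 15 pairs). The shuffling ignored the replicate numbers, and in the mean of the 6 genes number 4 was the lowest library in 4 of 4 groups. If the numbers mark something shared, the permutation p-values are too small. The closest pair was Tyrobp and Cd68, the adaptor and the lysosomal protein, with r = 0.829 and rho = 0.800 (permutation p = 5e-05 and 0.00031, adjusted 0.00075 and 0.00465). Tyrobp and Itgam came next, with r = 0.804 and rho = 0.800 (permutation p = 0.00109 and 0.00132, adjusted 0.00817 and 0.0099). Without the 2 libraries farthest from the median of the first gene these r were 0.829 for Tyrobp with Cd68 and 0.760 for Itgam with Tyrobp.

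Aif1 moved least with the others. Its weakest pairing was with Itgam, r = 0.288 and rho = 0.235 (permutation p = 0.253 and 0.385, adjusted 0.253 and 0.412). Only its pair with Tyrobp passed the test by Pearson's r, at 0.637 (permutation p = 0.0226, adjusted 0.0339), with rho = 0.618 (permutation p = 0.0315, adjusted 0.0591). Without WT SNI replicates 2 and 4, the libraries farthest from the median of Aif1, that r was 0.462 and the r of Aif1 with Cx3cr1 went from 0.421 to 0.00697, so the latter rests on those libraries. The r of Aif1 with Cd68 was 0.353 with them and 0.418 without. Among the 8 SNI libraries Aif1 had r from 0.594 to 0.952 with the other 5 genes, and among the 8 sham libraries from -0.539 to 0.00433; this contrast was not tested.

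**Figure D5:**
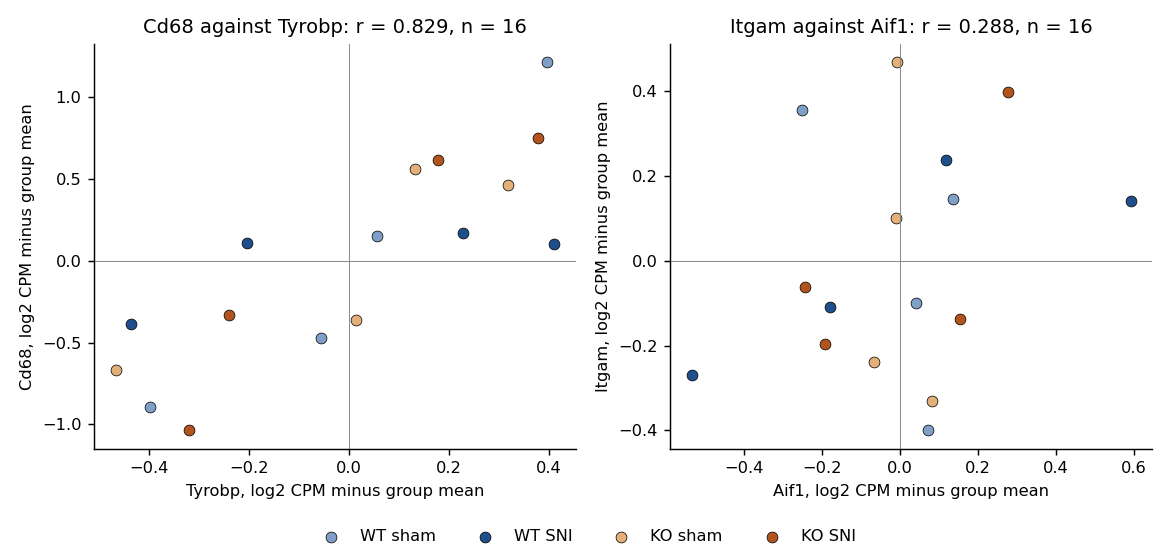
Each point is a library, placed by its log2 CPM minus its group's mean for Tyrobp and Cd68 (left) and for Aif1 and Itgam (right), coloured by group. The left panel shows points along a rising line (r = 0.829, n = 16), and the right panel shows a loose cloud (r = 0.288, n = 16).

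Set among all genes, the 6 had patterns close to one another over the 16 libraries, group differences included. Tyrobp had all 5 other members within its 100 most similar genes of 15236, by Pearson r of log2 CPM (r 0.878 to 0.920). Itgam had 4 of the other 5 among its top 100, and Aif1, Cx3cr1, Cd68 and Ptprc had 3 each, while the median r with all genes lay near 0 for each member. Outside the members, the ID most like their mean pattern was ENSRNOG00000008465 (r = 0.984 over 16 libraries), followed by ENSRNOG00000002045 (r = 0.982), which the files do not pair with names. ENSRNOG00000008465 had an averaged log2 rise after SNI of 0.60 (SE 0.10, edgeR adjusted p = 0.00645) and ENSRNOG00000002045 one of 0.66 (SE 0.11, edgeR adjusted p = 0.00488). Of the 100 IDs most like the mean pattern (r of at least 0.889), 89 were called in the averaged comparison, which the likeness itself favours because the pattern includes the response to SNI.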

How the data were processed

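RNA of 16 lumbar dorsal horn libraries was analysed, 4 in each of 4 groups. The groups were taken from the sample titles and, for KO sham, from the deposited column headers. Per the labels' protocols, the library kit was TruSeq Stranded mRNA. Fastp 0.22.0, STAR 2.7.9a, RSEM 1.3.1 and the build mRatBN7.2 are listed, with no role or order, in the submitters' processing notes; annotation, strand setting and filters are not given there. Values deposited by the authors are expected counts, estimated reads for each Ensembl gene, not scaled; 96.4% of values were whole within 1e-9. Reads that match several genes are divided among them in such estimates.

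Counts were rounded, filtered with filterByExpr (minimum count 10) and scaled by TMM in edgeR 4.0.16 under R 4.3.3. A single quasi-likelihood model, with 1 mean for each group, covered all 16 libraries, and p-values were adjusted over 15237 genes. The 7 comparisons were SNI against sham in WT, in KO and averaged, KO against WT after sham, after SNI and averaged, and the interaction. The common biological coefficient of variation was 18.0%. Log2 CPM used a prior count of 2. Alternatives were DESeq2 1.42.0, limma 3.58.1 (voom), other scalings, no filter, a replicate block, the 8 libraries compared alone and left-out libraries; robust estimation was added after the data were seen. The members, lists and comparisons were chosen with earlier results of these data known. Genes named in the text are the 6 members and the 2 IDs whose log2 CPM correlated best with their mean z-score; the best ID for each single member, also foreseen, is left out because unnamed IDs carry little. Another 15 marker lists were not run, since 0 of 47357 genes in the RefSeq name table carry an Ensembl ID.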

Additional observations from a re-analysis of the deposited data

Results flagged for a closer look

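Cd68 in WT SNI replicate 4 measured 1.96 CPM, against 2.78 to 2.92 CPM in the other 3 WT SNI libraries, a gap of 0.854 of the group's range where the critical value for 4 samples is 0.829. It was the only such value among 24 sets of 4 libraries; chance gives such a value in about 1 in 20 sets, so 1 among 24 is no more than chance gives. The same library was the lowest of WT SNI in all 6 genes.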

How the results depend on the processing

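All 444 log2 fold changes of the 6 genes after SNI, over 3 comparisons and every alternative run, were above 0 (0.43 to 1.93). In the averaged effect Aif1, Cx3cr1, Tyrobp and Ptprc kept their calls under all 24 alternatives, Itgam under 12 and Cd68 gained one under 5; leaving out 1 library gave 4 to 6 members called and 79 to 177 genes (139 over all libraries), and DESeq2 223. DESeq2 also called 65 genes in WT and 98 in KO, with 3 members in each, 4 in KO against WT after sham and 1 in the interaction. Limma voom called 0 genes in WT and 7 in KO. Fits to the 8 libraries compared alone called 0 in WT, 4 in KO and 1 between genotypes after sham. Without the 2 atypical libraries, 33 genes were called in WT with 1 member, 7 in KO and 1 between genotypes after sham. Leaving out 1 library gave 0 to 20 genes and 0 to 1 members in WT (12 and 0 over all libraries), 3 to 33 and 0 to 1 in KO (16 and 0), and 1 to 2 genes between genotypes after sham.

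With a replicate block, edgeR called 46 genes and 4 members in WT (Itgam, Cx3cr1, Tyrobp and Ptprc), 70 genes and 3 members in KO (Itgam, Cx3cr1 and Tyrobp), 1 gene between genotypes after sham, and all 6 members in the averaged effect. Nothing in the labels says that a number marks a shared litter or day. Over all genes, same-numbered libraries had deviations correlated at -0.282 to 0.209, over 0.1 in 5 of 16 pairs, and 5 of 16 matched their own number best, so the numbers were not taken as pairs. In the mean of the 6 genes, however, the library numbered 4 was the lowest of its group in 4 of 4 groups. The library numbered 3 was the next lowest in each group. Gene by gene, number 4 was the lowest in 17 of 24 sets of 1 gene in 1 group. For these genes the numbers may thus mark something shared, which was not tested. Neither the main tests nor the covariation took the numbers into account.

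Directions near 0 between genotypes turned, all uncalled. Without 1 library, KO minus WT after sham was -0.073 to 0.24 for Itgam, -0.16 to 0.091 for Tyrobp and -0.40 to 0.39 for Cd68; after SNI it was -0.081 to 0.31 for Aif1, -0.054 to 0.18 for Itgam, -0.22 to 0.071 for Tyrobp and -0.48 to 0.054 for Cd68; averaged it was -0.081 to 0.11 for Aif1, -0.13 to 0.012 for Tyrobp, -0.31 to 0.095 for Cd68 and -0.13 to 0.012 for Ptprc. The interaction was -0.00037 to 0.39 for Aif1, -0.16 to 0.17 for Itgam, -0.083 to 0.094 for Cx3cr1, -0.18 to 0.12 for Tyrobp and -0.59 to 0.21 for Cd68. The interaction of Cx3cr1 was -0.010 with DESeq2, -0.0066 with limma voom, -0.0099 with RLE scaling, -0.0061 with upper-quartile scaling, -0.011 with no filter, -0.0072 with the replicate block and -0.11 without the 2 atypical libraries; that of Itgam was 0.0022 with voom. The averaged genotype difference of Aif1 was 0.024 with voom, 0.00033 with no filter and 0.0069 with the block, and the difference of Cd68 after sham was 0.0097 with voom. Without the 2 atypical libraries, KO minus WT was 0.092 for Tyrobp and 0.39 for Cd68 after sham, and -0.030 for Aif1 and -0.053 for Itgam after SNI. The cause of these changes was not tested. The median covariation of 0.637 was 0.564 to 0.705 without 1 library. Cd68 had the fewest counts of the 6 genes, 8 to 98 per library, and the widest confidence intervals in all 7 comparisons.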

Other observations

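Whether the SNI effects of the 6 genes were unequal was examined after their values had been seen, by the difference in log2 CPM between 2 genes in each library. Cx3cr1 had the smallest estimated SNI effect, below each of the other 5 by 0.14 (Itgam) to 0.79 (Cd68) on the log2 scale. No such difference had an adjusted p under 0.05 in the exact permutation test. The rise of Tyrobp exceeded that of Cx3cr1 by 0.37 (SE 0.14), in 8 of 8 SNI libraries relative to their sham mean, with 0.38 in WT and 0.36 in KO (exact permutation test within genotypes, two-sided, p = 0.0171, adjusted over 15 pairs 0.102). Tyrobp also exceeded Itgam by 0.24 (SE 0.10) in 8 of 8 libraries (exact permutation test, p = 0.0339, adjusted 0.102). Of the 15 pairs 5 had an unadjusted p under 0.05 and 0 an adjusted one, so an unequal SNI effect was not established by this test.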
